A study of Mus musculus with 17 samples.

Results

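A set of 10 genes of pericellular proteolysis was followed across the series: the stromelysins Mmp3 and Mmp10, the matrilysin Mmp7, the collagenases Mmp8 and Mmp13, the gelatinase Mmp9, the macrophage elastase Mmp12, the membrane-type metalloproteinase Mmp14, the inhibitor Timp1 and the sheddase Adam8. They were chosen by name, as the rows whose NCBI gene number maps to these mouse symbols, and all 10 were found among the 27179 genes of the count tables. RNA was sequenced from colon macrophage preparations of C57BL/6 mice, in wild-type mice (WT) and in mice deficient for MCJ (KO), the mitochondrial inner membrane protein encoded by Dnajc15. All animals were 8 weeks old, and the preparations were obtained from colon tissue by washing and by digestion with type IV collagenase. The NN groups carried no treatment in their labels (3 WT and 2 KO libraries). The NP groups received dextran sulphate sodium (DSS), a detergent-like polysaccharide that injures the colonic epithelium, for 6 days (3 WT and 3 KO libraries). The PP groups received a broad-spectrum antibiotic for 7 days and then DSS for 6 days (3 WT and 3 KO libraries). No group received the antibiotic alone, and the cells in which Dnajc15 was inactivated are not given in the labels.

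Matrix metalloproteinases (MMPs) are zinc enzymes that are secreted or held at the cell surface as inactive precursors and that cleave collagens, elastin, proteoglycans, cytokines and one another. TIMP1 binds the active site of most secreted MMPs and blocks it. In the inflamed gut, stromelysins are typically products of stromal cells and macrophages, MMP8 and MMP9 are stored in neutrophil granules, and MMP12 is a product of macrophages. ADAM8 is a membrane protease of leukocytes that sheds adhesion molecules.

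Mmp13, Mmp12, Mmp3, Mmp10, Mmp8 and Mmp7 lie in that order, 6 of the 10 members, within 427.1 kb of chromosome 9 (chr9:7272514-7699585, GRCm38). Mmp9 is on chromosome 2, Mmp14 on chromosome 14, Timp1 on the X chromosome and Adam8 on chromosome 7. Exons of Mmp7, Mmp12 and Adam8 overlap exons of AV064505 (123 bases), Mmp1b (157 bases) and Gm16201 (46 bases) on the other strand, and whether the counting used strand is not given in the sources used here. Start-site sequences of the chromosome 9 members are shown because these 6 neighbouring genes were all near or at 0 in the NN libraries, had counts in the DSS libraries and were called in different comparisons. The exceptions under DSS were Mmp12 in WT NP replicate 8 and Mmp7 in KO NP replicate 21, both at 0 counts. The sequences are from RefSeq (GRCm38.p6, plus strand), run from 70 bases before to 10 bases after the annotated start, and carry in capitals each match, on either strand, to the AP-1 motif TGANTCA or to TATAAA. The windows are chr9:7445752-7445831 for Mmp3, chr9:7502272-7502351 for Mmp10, chr9:7692020-7692099 for the first start of Mmp7, chr9:7347304-7347383 for the second start of Mmp12, chr9:7272444-7272523 for Mmp13 and chr9:7558359-7558438 for Mmp8.
Mmp3: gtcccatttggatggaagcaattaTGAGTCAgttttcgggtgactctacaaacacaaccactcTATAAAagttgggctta
Mmp10: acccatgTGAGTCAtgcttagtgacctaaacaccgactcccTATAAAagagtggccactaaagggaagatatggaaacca
Mmp7: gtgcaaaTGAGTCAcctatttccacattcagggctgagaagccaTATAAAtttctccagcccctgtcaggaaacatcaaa
Mmp12: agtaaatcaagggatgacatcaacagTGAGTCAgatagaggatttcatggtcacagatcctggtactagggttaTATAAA
Mmp13: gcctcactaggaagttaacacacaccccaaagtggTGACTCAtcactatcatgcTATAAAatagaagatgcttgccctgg
Mmp8: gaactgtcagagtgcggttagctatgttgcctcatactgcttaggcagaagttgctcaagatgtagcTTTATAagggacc
Promoters of 300 bases (250 before to 50 after the start) were matched for 9 of the 10 members, with 11 start sites; Mmp9 had no entry. TGANTCA occurred in 5 of these 9 members, the 5 chromosome 9 genes other than Mmp8, and in 7.81% of all 32851 promoters of that length. TATAAA occurred in 6 of the 9 members, the 6 chromosome 9 genes, and in 13.6% of all promoters. Its place in the printed windows varied. The match lay at bases -29 to -24 in Mmp10, -26 to -21 in Mmp7, -16 to -11 in Mmp13 and -7 to -2 in Mmp3. In Mmp8 it lay across the start on the other strand (-3 to 3), and in Mmp12 after the start (5 to 10). An NF-kB motif, searched in its short consensus form on both strands, occurred in 4 of the 9 (Mmp7, Mmp12, Mmp14 and Timp1) and in 50.8% of all promoters. The first start of Mmp12 and the second start of Mmp7, which are not printed, held neither TGANTCA nor TATAAA in the same window. Members with more than 1 start had more chances to match, the neighbouring genes share ancestry, and the printed window was chosen after the matches were seen.

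The 17 libraries held 29194744 to 37083344 counts, of which 23.12 to 50.37% came from mitochondrially encoded genes. Levels are CPM (counts scaled to a common library size, here with TMM factors), and libraries are named by the numbers in their labels. Dnajc15 averaged 36.5, 37.5 and 26.5 CPM in WT NN, NP and PP and 2.79, 2.05 and 1.48 CPM in the KO groups, with every KO library below every WT library of its condition. The 14 macrophage markers summed to 25.0 to 32.8 CPM in NN libraries of both genotypes (Cd163 at 0), against 17449 to 25064 CPM for 13 colonocyte markers. The macrophage sum was 146 to 233 CPM in WT NP, 525 to 1564 CPM in KO NP, 634 to 5068 CPM in WT PP and 2907 to 5558 CPM in KO PP. The libraries are therefore described as preparations, and in such bulk samples fewer cells of a type and less RNA per cell cannot be told apart. WT PP replicate 11 stood apart from the other WT PP libraries, with the lowest macrophage and neutrophil marker sums of that group.

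Most of these genes were at or near 0 in preparations of mice without treatment. Mmp14, the membrane-anchored collagenase that also activates pro-MMP2, was counted in all 5 libraries at more than 3 CPM. Its level in WT NN was 3.56, 6.71 and 11.7 CPM, and in KO NN 8.99 and 9.51 CPM. The KO values lay inside the WT range, and the fitted log2 difference was 0.29 (SE 0.67; edgeR quasi-likelihood test, Benjamini-Hochberg adjusted p = 0.994). Mmp14 accounted for 93.8 to 97.6% of the summed level per kilobase of the 8 MMPs in WT NN and for 95.02 to 96.3% in KO NN. Mmp7 and Mmp10 had 0 counts in all 5 libraries, which allows up to 0.0422 CPM over the WT group and 0.0390 CPM over the KO group by counting error alone. The other MMPs reached at most 0.368 CPM in any NN library.

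Timp1 and Adam8 differed more from library to library in NN. Timp1 was at 0.0409, 2.72 and 0.153 CPM in WT NN, so 1 library held nearly all of its 61 counts, and at 0.131 and 0.231 CPM in KO NN. Adam8 had 0 counts in the 3 WT libraries and was at 2.08 and 0.360 CPM (79 and 14 counts) in the 2 KO libraries. Against the limit set by 3 counts over the WT group, Adam8 was at least 28.7-fold higher in KO NN, with unadjusted p = 0.0234 and adjusted p = 0.572 by edgeR's quasi-likelihood test. The mitochondrial percentage of counts also separated these groups, at 38.9 to 50.4% in WT NN and 23.1 and 28.4% in KO NN. Fewer genes had 10 or more counts in the WT NN libraries (12383, 10075 and 13000) than in the KO NN libraries (13567 and 13571). The part of either in the Adam8 difference was not tested. Only Mmp14 and Adam8 passed the filter on low counts, so the other 8 members were not tested between genotypes here. Of these 2 members 0 were called higher with MCJ loss, as were 0% of the 13559 genes tested, while 1 of the 2 and 1124 of all genes had an unadjusted p under 0.05. DESeq2 called 0 members and 283 genes. Dnajc15 itself was not called by edgeR in NN (log2 difference -3.76, SE 0.55, adjusted p = 0.326), so 0 calls do not show that the genotypes were alike.

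**Figure D1:**
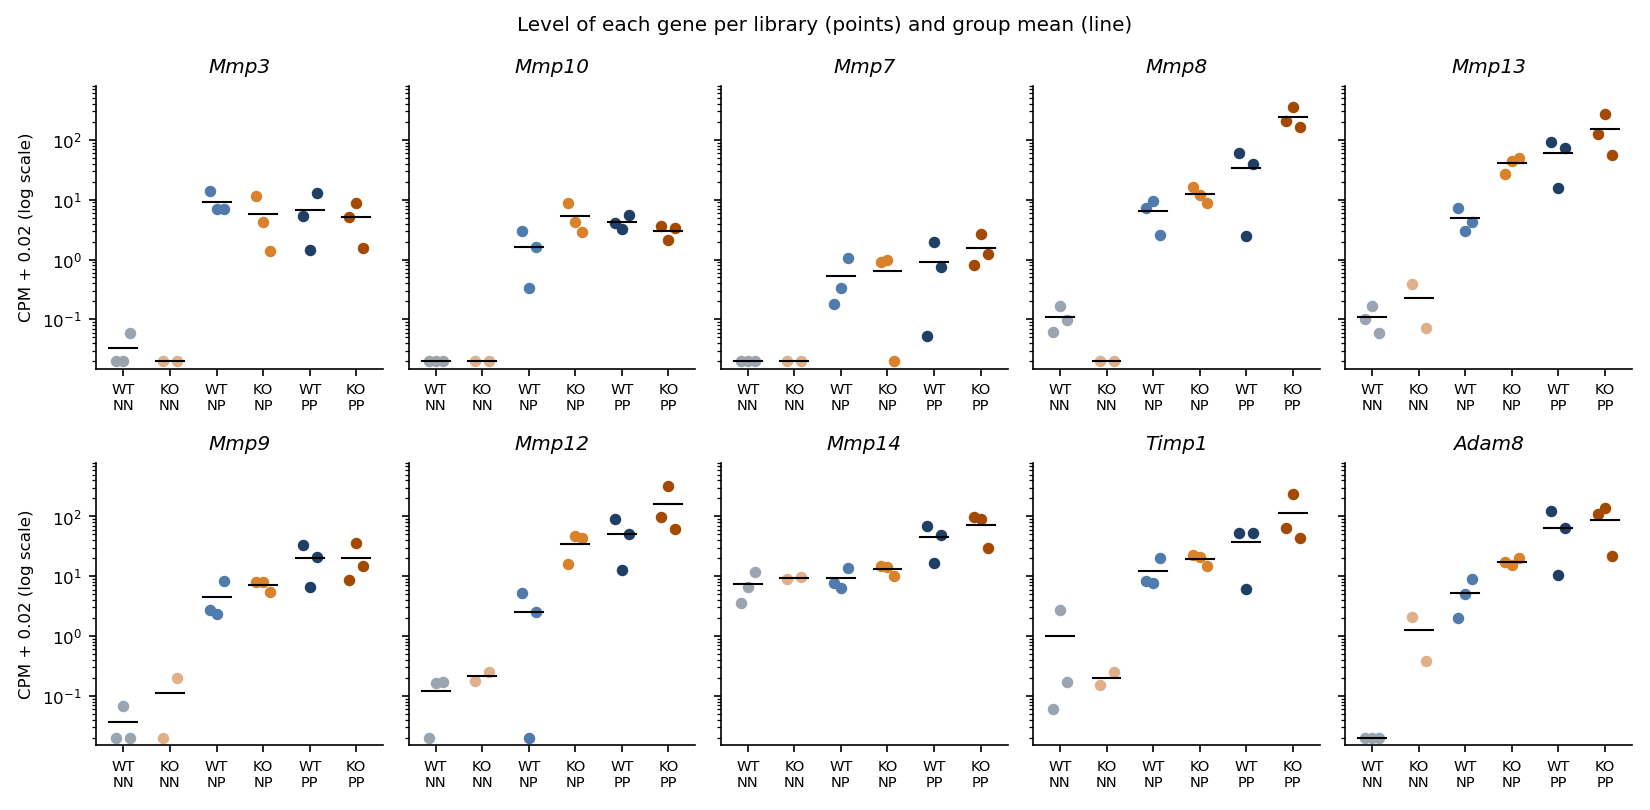
Level of each member in each library (points, CPM + 0.02 on a log axis) and the group mean (line), for WT and KO in NN, NP and PP. Most members sit near the bottom of the axis in NN and higher in NP and PP, Mmp14 sits between 3.56 and 11.7 CPM in NN, and the 3 KO PP libraries of Mmp8 sit between 167 and 359.5 CPM, above every other library of that gene.

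Under DSS, most members went from near 0 to detectable levels in both genotypes. In WT, 6 of the 10 members were called higher in NP than in NN, against 2.25% of the 16958 genes tested: Mmp3, Mmp8, Mmp9, Mmp10, Mmp13 and Adam8. In KO, 7 of the 10 were called higher, against 2.04% of all genes: Mmp3, Mmp8, Mmp9, Mmp10, Mmp12, Mmp13 and Timp1. The members called were all higher. The members' median log2 fold change was 6.66 in WT and 7.45 in KO, or 5.48 and 6.94 with genes against 0 counts set at their lower bounds, and the median of all genes was 0.14 and 0.02. The same NN libraries served the DSS and the antibiotic-plus-DSS comparisons, so the 2 are not independent.

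Mmp3, the stromelysin that cleaves proteoglycans and activates other pro-MMPs, was at 13.8, 7.01 and 6.91 CPM in WT NP, from 1 count in all WT NN libraries together. That is a ratio of 629.7 (95% counting interval 113 to 24895), and the call had adjusted p = 0.0024. In KO NP Mmp3 was at 11.6, 4.29 and 1.39 CPM, at least 165-fold above KO NN (adjusted p = 0.0042). Mmp10, the other stromelysin, was at 2.93, 0.316 and 1.60 CPM in WT NP and 8.67, 4.14 and 2.86 CPM in KO NP. Its lower bounds were 36.4-fold in WT (adjusted p = 0.0060) and 144-fold in KO (adjusted p = 0.0036). Every DSS library was above every untreated library for both stromelysins.

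The collagenase Mmp13, which opens fibrillar collagen, was at 7.35, 3.03 and 4.22 CPM in WT NP and at 27.2, 44.4 and 49.6 CPM in KO NP. It rose by 5.78 on the log2 scale in WT (SE 0.90, adjusted p = 0.0022) and by 7.57 in KO (SE 1.01, adjusted p = 0.000876). The neutrophil collagenase Mmp8 was at 7.19, 9.51 and 2.51 CPM in WT NP, a log2 rise of 6.18 (SE 1.04, adjusted p = 0.0044). In KO NP it was at 16.1, 12.2 and 8.87 CPM, at least 329-fold above KO NN (adjusted p = 0.0015). The neutrophil marker sum, which leaves out Mmp8 and Mmp9, was 25.3 to 65.3 CPM in NN and 275 to 689 CPM in NP, and its part in these rises was not tested. Other marker sums moved as well: the macrophage sums given above did not overlap between NN and NP, the fibroblast sum was 6.04 to 9.12 CPM in KO NN and 87.0 to 217 CPM in KO NP (10.8 to 192 and 124 to 326 CPM in WT), and the colonocyte sum was 23281 to 25064 CPM in WT NN and 13084 to 17081 CPM in WT NP. The mitochondrial percentage of counts was 23.1 and 28.4% in KO NN and 33.8 to 49.0% in KO NP. Genes with 10 or more counts numbered 10075 to 13000 in WT NN and 13612 to 14579 in WT NP. The part of these differences in the rises was not tested.

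Gelatinase Mmp9 was at 2.71, 2.32 and 8.42 CPM in WT NP and 8.06, 8.14 and 5.49 CPM in KO NP. It rose in both genotypes, by 6.26 on the log2 scale in KO (SE 1.17, adjusted p = 0.0056), and in WT by a ratio of 341 (95% counting interval 61.0 to 13506) against 1 count in NN (adjusted p = 0.0021). Adam8, at 1.97, 5.09 and 8.85 CPM in WT NP, was at least 135-fold above WT NN (adjusted p = 0.0055). In KO, where the NN libraries already held Adam8 counts, it was at 17.3, 15.3 and 20.1 CPM and its log2 fold change of 3.85 (SE 1.05) missed the threshold (adjusted p = 0.0886).

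Mmp12, the elastase of macrophages, was at 5.12, 0 and 2.46 CPM in WT NP, overlapping the NN libraries, with a log2 fold change of 4.62 (SE 1.35, adjusted p = 0.0851). In KO NP it was at 15.9, 46.8 and 43.0 CPM and rose by 7.47 (SE 1.54, adjusted p = 0.0119). The inhibitor Timp1 was at 8.22, 7.78 and 20.1 CPM in WT NP (log2 fold change 3.67, SE 1.02, adjusted p = 0.0674) and at 22.3, 21.2 and 14.9 CPM in KO NP, where it rose by 6.71 (SE 1.43, adjusted p = 0.0152). A call in 1 genotype and none in the other is not a difference between them, and the tests of that difference are given with the MCJ effect. The matrilysin Mmp7, an epithelial and secretory-cell protease, was at or under 1.05 CPM in NP libraries of both genotypes and was not called (adjusted p = 0.176 in WT and 0.357 in KO). Mmp14 was not called, at 7.67, 6.25 and 13.7 CPM in WT NP and 15.0, 14.5 and 9.96 CPM in KO NP, with log2 fold changes of 0.33 (SE 0.52, adjusted p = 0.811) and 0.51 (SE 0.59, adjusted p = 0.981).

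Other than for Mmp3, the WT calls depended on the spread shared by all 17 libraries. In KO, the calls of Mmp3, Mmp9, Mmp10, Mmp12 and Timp1 depended on the NN libraries. Fitted on WT NN and WT NP alone, 1 member (Mmp3) was still called, and calls over all genes also fell, as given with the processing. In the shared fit, all 6 WT calls held with any 1 WT NN or WT NP library left out. Without KO NN replicate 13 or replicate 14, which leaves 1 untreated KO library assumed to vary like the other groups, the calls of Mmp3, Mmp10, Mmp12 and Timp1 ended (highest adjusted p 0.0965, 0.0896, 0.228 and 0.268), as did that of Mmp9 without replicate 13 (adjusted p = 0.114).

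Loss of MCJ under DSS alone went with more Mmp13: this collagenase was the 1 member of 10 called higher in KO NP than in WT NP, where 0.983% of the 14452 genes tested were called higher. Its level was 4.87 ± 2.23 CPM (SD, n = 3) in WT NP and 40.4 ± 11.7 CPM (SD, n = 3) in KO NP, and the lowest KO library, at 27.2 CPM, was above the highest WT library, at 7.35 CPM. Mmp13 rose by 3.06 on the log2 scale (SE 0.37, edgeR quasi-likelihood adjusted p = 0.0036). Leaving out each library in turn gave 2.80 to 3.48 with adjusted p at most 0.0439. When the spread was shared over all 17 libraries the log2 difference was 3.05 and the call ended (adjusted p = 0.211).

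Mmp12 and Adam8 separated the genotypes without a call. Mmp12 averaged 2.53 ± 2.56 CPM (SD, n = 3) in WT NP and 35.2 ± 16.8 CPM (SD, n = 3) in KO NP, a log2 difference of 3.81 with a wide error (SE 0.96, adjusted p = 0.122). Adam8 averaged 5.30 ± 3.45 CPM (SD, n = 3) in WT NP and 17.6 ± 2.40 CPM (SD, n = 3) in KO NP, a log2 difference of 1.72 (SE 0.45, adjusted p = 0.133). With Mmp13, these make 3 of 10 members with every KO library above every WT library, against 9.8% of all genes tested. Mmp12 passed the threshold without KO NP replicate 19 (4.15, adjusted p = 0.0402), and Adam8 did so without WT NP replicate 9 (2.31, adjusted p = 0.033) and by DESeq2 (adjusted p = 0.0088).

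The remaining 7 members overlapped between genotypes under DSS. Log2 differences were 1.70 for Mmp10 (SE 0.70), 0.95 for Mmp8 (SE 0.45), 0.69 for Timp1 (SE 0.37), 0.69 for Mmp9 (SE 0.49), 0.52 for Mmp14 (SE 0.35) and 0.28 for Mmp7 (SE 1.40), with adjusted p of 0.473 to 0.983. Mmp3 was the 1 member with a negative value, -0.68 (SE 0.61, adjusted p = 0.847). The members' median was 0.82, against 0.03 over all genes.

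Macrophage markers moved with these differences. Their sum was 146 to 233 CPM in WT NP and 525 to 1564 CPM in KO NP, with no overlap. As a percentage of that sum, Mmp13 was 3.86, 2.07 and 1.81% in the WT NP libraries and 5.17, 2.84 and 5.97% in the KO NP libraries, which overlap. Mmp12 was 2.69, 0 and 1.06% in WT NP and 3.02, 2.99 and 5.18% in KO NP, which do not overlap but lie close. Adam8 was 1.03 to 3.79% in WT NP and 0.978 to 3.29% in KO NP. Neutrophil marker sums overlapped (398 to 689 CPM in WT NP, 275 to 573 CPM in KO NP), as did fibroblast marker sums (124 to 326 and 87.0 to 217 CPM). The sums of 2 other sets were higher in every KO NP library than in every WT NP library: eosinophil markers at 0.355 to 1.95 CPM in WT NP and 5.51 to 29.5 CPM in KO NP, and plasma and B cell markers at 3.42 to 9.38 and 20.2 to 322 CPM. Of these markers, Epx was at 0 in both NP groups and Ms4a1 at 0 in WT NP. The part of these contents in the Mmp13 difference was not tested.

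**Figure D2:**
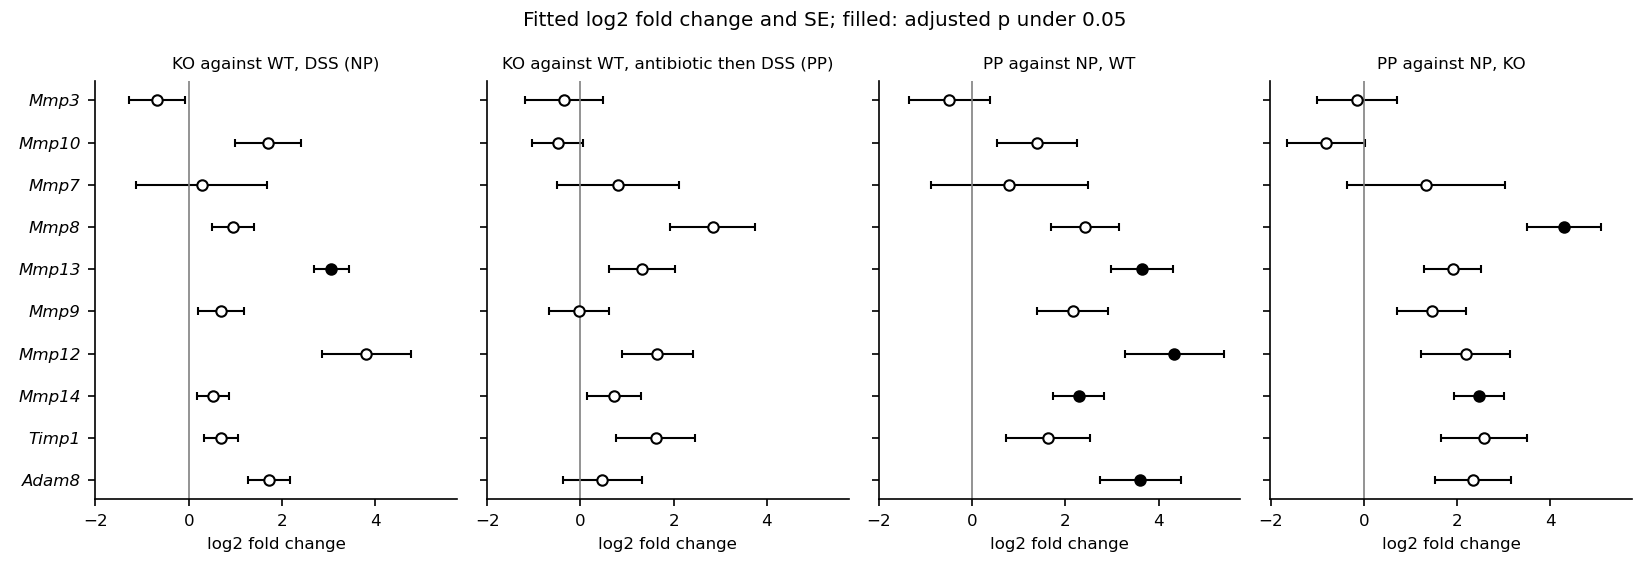
Fitted log2 fold change of each member with its SE (bars) for KO against WT in NP and in PP, and for PP against NP in WT and in KO; filled points have an adjusted p under 0.05. Mmp13 is the filled point for the MCJ comparison in NP, none is filled in PP, and 4 members in WT and 2 in KO are filled for the antibiotic comparison.

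With the antibiotic before DSS, Mmp14 was higher than under DSS alone in both genotypes, Mmp12, Mmp13 and Adam8 in WT, and Mmp8 in KO, while neither stromelysin was called. In WT, 4 of 10 members were called higher in PP than in NP, against 3.49% of the 16958 genes tested: Mmp12, Mmp13, Mmp14 and Adam8. In KO, 2 of 10 were called higher, against 1.34% of all genes: Mmp8 and Mmp14. The members called were all higher. Every PP library was above every NP library for 5 members in WT (Mmp10, Mmp12, Mmp13, Mmp14 and Adam8; 11.6% of all genes) and for 7 in KO (Mmp8, Mmp9, Mmp12, Mmp13, Mmp14, Timp1 and Adam8; 12.8% of all genes). The members' median log2 fold change was 2.22 in WT and 2.05 in KO, and that of all genes was 0.06 and 0.01. The WT NP and KO NP libraries also served the MCJ and DSS comparisons.

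Marker sums moved with the antibiotic as well. The macrophage sum was 146 to 233 CPM in WT NP and 634 to 5068 CPM in WT PP, and the colonocyte sum was 13084 to 17081 CPM in WT NP and 8553 to 12841 CPM in WT PP. As a percentage of the macrophage sum, Mmp14 was 4.03, 4.27 and 5.86% in WT NP and lower in every WT PP library, at 1.36, 2.60 and 1.01%. Mmp13 was 3.86, 2.07 and 1.81% in WT NP and 1.82, 2.49 and 1.53% in WT PP, Mmp12 was 0 to 2.69% and 1.05 to 2.02%, and Adam8 was 1.03 to 3.79% and 1.31 to 2.39%, all overlapping. In KO, Mmp14 was 0.924 to 2.86% of the macrophage sum in NP and 1.02 to 2.93% in PP, which overlapped. Mmp8 was 3.61, 2.13 and 3.23% of the neutrophil sum in KO NP and higher in every KO PP library, at 18.3, 6.85 and 11.4%. These percentages were examined after the levels were seen and have no test, and the part of cell content in the calls was not tested.

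Mmp14, which was not called under DSS alone, was at 69.1, 16.5 and 48.9 CPM in WT PP and at 98.6, 89.8 and 29.7 CPM in KO PP. It rose by 2.28 on the log2 scale in WT (SE 0.54, adjusted p = 0.0222) and by 2.47 in KO (SE 0.54, adjusted p = 0.0369). Mmp14 was thus the 1 member called in both genotypes. The WT call ended without NP replicate 7 or 8 or without PP replicate 10 or 12, and the KO call ended without any library except PP replicate 24, with log2 values of 1.83 to 2.69 in WT and 2.10 to 2.84 in KO.

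Mmp13 was at 92.2, 15.8 and 74.1 CPM in WT PP, 3.64 above NP on the log2 scale (SE 0.67, adjusted p = 0.0045), and it passed the threshold whichever library was left out. In KO PP it was at 124, 273 and 56.6 CPM, with a log2 fold change of 1.91 (SE 0.62, adjusted p = 0.130). Mmp12 was at 89.3, 12.8 and 51.0 CPM in WT PP, a log2 rise of 4.34 (SE 1.06, adjusted p = 0.0261), and at 97.3, 323 and 61.4 CPM in KO PP, with 2.19 (SE 0.96, adjusted p = 0.299). Adam8 was at 121, 10.3 and 63.5 CPM in WT PP, a log2 rise of 3.61 (SE 0.86, adjusted p = 0.0264), and at 108, 136 and 21.8 CPM in KO PP, with 2.34 (SE 0.81, adjusted p = 0.173). The WT calls of Mmp12 and Adam8 ended when any 1 of several libraries was left out. That of Mmp12 ended without NP replicate 7 or 9 or PP replicate 10 or 12 (adjusted p up to 0.131). That of Adam8 ended without any library except PP replicate 11 (adjusted p up to 0.157). Over all fits with 1 library left out, log2 values were 3.66 to 5.35 for Mmp12 and 2.79 to 4.20 for Adam8. Without PP replicate 11, the low library of WT PP, 6 members were called in place of 4. Calls over all genes grew as well, to 1313 from 591 higher and 157 lower.

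The neutrophil collagenase Mmp8 was at 60.8, 2.49 and 39.4 CPM in WT PP and at 205, 359.5 and 167 CPM in KO PP. In KO it rose by 4.30 on the log2 scale (SE 0.79, adjusted p = 0.0176), the largest fold of the 10 members in that comparison, and the call ended without any 1 of the 3 KO NP libraries (adjusted p up to 0.156). In WT the log2 fold change was 2.42 (SE 0.73, adjusted p = 0.0749), and without WT PP replicate 11 it was 2.97 (adjusted p = 0.000823). The neutrophil marker sum was 302 to 1513 CPM in WT PP and 1121 to 5248 CPM in KO PP.

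Mmp9 was at 32.7, 6.57 and 20.98 CPM in WT PP and 8.70, 36.1 and 14.7 CPM in KO PP, with log2 fold changes of 2.16 (SE 0.76, adjusted p = 0.131) and 1.46 (SE 0.74, adjusted p = 0.394). Timp1 was at 52.6, 6.20 and 53.2 CPM in WT PP and 63.4, 239.8 and 44.1 CPM in KO PP, with 1.63 (SE 0.90, adjusted p = 0.389) and 2.57 (SE 0.92, adjusted p = 0.183). Neither was called, and KO PP replicate 23 held by far the most Timp1.

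The stromelysins and the matrilysin were not called. Mmp3 was at 5.37, 1.45 and 12.97 CPM in WT PP and 5.22, 8.82 and 1.56 CPM in KO PP, which overlapped the NP libraries in both genotypes (log2 fold changes of -0.49, SE 0.86, and -0.15, SE 0.86). Mmp10 was at 4.01, 3.18 and 5.59 CPM in WT PP and 3.55, 2.08 and 3.30 CPM in KO PP, with log2 values of 1.40 (SE 0.86) and -0.81 (SE 0.84). Mmp7 reached 2.64 CPM at most, with 0.80 (SE 1.68) and 1.33 (SE 1.69). The lowest adjusted p among these was 0.457.

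Set against mice without treatment, the antibiotic and DSS together gave calls for 10 of 10 members in WT, against 12.8% of all genes, and for 9 of 10 in KO, against 6.52% of all genes. Mmp14 rose by 2.61 in WT (SE 0.55, adjusted p = 0.0027) and by 2.97 in KO (SE 0.65, adjusted p = 0.0066), and Mmp13 by 9.42 (SE 0.96) and 9.48 (SE 1.08). Timp1 rose by 5.31 in WT (SE 1.08) and by 9.29 in KO (SE 1.57). Mmp7 was the 1 member not called in KO, at least 39.7-fold above the limit of 0 counts with adjusted p = 0.0738, and its WT call (adjusted p = 0.0378) ended without any 1 of 5 libraries. The KO call of Mmp14 ended without NN replicate 13 or 14 (adjusted p up to 0.0973).

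After the antibiotic, no member was called between genotypes: 0 of 10 and 0% of the 14556 genes tested passed in KO PP against WT PP, with 1 member and 758 genes at an unadjusted p under 0.05, and 1 member and 88 genes called by DESeq2. Dnajc15 itself was not called by edgeR here (log2 difference -4.15, SE 0.76, adjusted p = 0.791). The 0 calls therefore do not show that the genotypes were alike. The member with an unadjusted p under 0.05 and the member called by DESeq2 were both Mmp8. Its level was 34.2 ± 29.5 CPM (SD, n = 3) in WT PP and 244 ± 102 CPM (SD, n = 3) in KO PP, and the lowest KO library, at 167 CPM, was above the highest WT library, at 60.8 CPM. The log2 difference was 2.84 (SE 0.91, unadjusted p = 0.0134, adjusted p = 0.938 by edgeR and 0.0309 by DESeq2), and without WT PP replicate 11 it was 2.30 (SE 0.43, adjusted p = 0.267). Mmp8 was 1 of 10 members with no overlap in this direction, against 5.52% of all genes. The mitochondrial percentage of counts also separated these groups, at 38.7, 43.8 and 48.4% in WT PP and 27.3, 25.4 and 35.2% in KO PP, and its part in the Mmp8 difference was not tested.

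The neutrophil markers did not follow Mmp8 in proportion. Mmp8 was 4.02, 0.826 and 3.49% of the neutrophil marker sum in WT PP and 18.3, 6.85 and 11.4% in KO PP, with no overlap. Mmp9, also a granule product, was 2.16, 2.18 and 1.86% of that sum in WT PP and 0.776, 0.689 and 1.00% in KO PP, again with no overlap and in the other direction. These percentages were examined after the levels were seen, and they have no test; with 3 libraries against 3, an exact 2-sided permutation test cannot go below 0.1. Monocyte marker sums (Chil3 among them) were 620 to 2116 CPM in WT PP and 2683 to 3606 CPM in KO PP. The monocyte sum was already 1230 to 2060 CPM in WT NN, where Ccr2 was at 0. In KO NN it was 547 to 930 CPM. Red blood cell marker sums were 257 to 347 CPM in WT PP and 751 to 11576 CPM in KO PP. Paneth cell marker sums were 424 to 643 and 158 to 268 CPM, with the defensins Defa17 and Defa24 at 0 in both groups. Whether the differences in these sums take part in the Mmp8 difference was not tested.

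For the other 9 members the genotypes overlapped in PP. Log2 differences were 1.65 for Mmp12 (SE 0.77), 1.62 for Timp1 (SE 0.84), 1.32 for Mmp13 (SE 0.71), 0.81 for Mmp7 (SE 1.31), 0.72 for Mmp14 (SE 0.59), 0.47 for Adam8 (SE 0.85), -0.02 for Mmp9 (SE 0.64), -0.36 for Mmp3 (SE 0.84) and -0.49 for Mmp10 (SE 0.54). Their adjusted p lay between 0.942 and 0.998. Without KO PP replicate 23, which held the highest Mmp12, Mmp13 and Timp1, these 3 values fell to 0.62, 0.55 and 0.50. The members' median was 0.76, against 0.01 over all genes.

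The change of the MCJ effect between conditions was tested directly and gave no member. For NP against NN, 0 of 10 members and 0% of all genes were called (1 member and 950 genes at an unadjusted p under 0.05, and 0 members and 165 genes by DESeq2). In 6 members a group was at or under 3 counts there, and no value is given for them. The 4 others were Timp1 at 3.04 (SE 1.58), Mmp12 at 2.85 (SE 2.15), Mmp13 at 1.796 (SE 1.43) and Mmp14 at 0.18 (SE 0.78). For PP against NP, 0 of 10 members and 0% of all genes were called (0 members and 886 genes at an unadjusted p under 0.05, and 0 members and 90 genes by DESeq2). The difference of log2 effects was -1.74 for Mmp13 (SE 0.86, adjusted p = 0.969), -2.15 for Mmp12 (SE 1.32), -2.21 for Mmp10 (SE 1.20) and 1.88 for Mmp8 (SE 0.99). The MCJ effects on Mmp13 in NP and in PP are therefore not shown to differ, although 1 was called and the other was not.

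Per kilobase of transcript, Timp1 had the highest mean of the members in all 4 DSS groups, in KO PP through replicate 23 alone, at 13.6 ± 7.93 CPM per kilobase in WT NP, 22.03 ± 4.51 in KO NP, 42.3 ± 30.5 in WT PP and 131 ± 122 in KO PP (SD, n = 3 each). The second place changed with the group. In WT NP it was Mmp3, at 5.14 ± 2.20 CPM per kilobase, followed by Mmp14 (3.54 ± 1.52) and Mmp8 (2.64 ± 1.47), neighbours that lay within their spread. In KO NP it was Mmp13 (15.1 ± 4.39) before Mmp12 (9.77 ± 4.67), and in WT PP Mmp13 (22.7 ± 14.9) before Adam8 (20.9 ± 17.8), with both pairs inside their spread. In KO PP it was Mmp8, at 101 ± 42.0, before Mmp13 (56.6 ± 41.4) and Mmp12 (44.5 ± 39.3), and Timp1 and Mmp8 lay within their spread there. Mmp8 was above Timp1 in KO PP replicates 22 (84.7 against 71.8 CPM per kilobase) and 24 (69.0 against 49.97) and below it in replicate 23 (148 against 272). Mmp7 was at 0 to 2.47 CPM per kilobase in the DSS libraries.

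The make-up of the MMP transcripts also varied between groups. Mmp3 formed 37.5, 31.0 and 22.6% of the summed level per kilobase of the 8 MMPs in WT NP and 15.4, 4.92 and 1.83% in KO NP, with no overlap. It formed 2.35, 3.44 and 7.61% in WT PP and 1.42, 1.24 and 0.680% in KO PP. The share of Mmp13 was 13.4, 9.02 and 9.31% in WT NP, 24.3, 34.3 and 44.0% in KO NP, 27.2, 25.3 and 29.3% in WT PP and 22.8, 25.9 and 16.6% in KO PP. Mmp8 formed 41.4, 37.6 and 54.3% in KO PP and at most 31.2% in any other library. These shares do not depend on the scaling between libraries; they were examined after the levels were seen and have no test. The summed MMP level was 16.7 ± 3.96 CPM per kilobase in WT NP, 44.2 ± 3.71 in KO NP, 81.5 ± 52.9 in WT PP and 242 ± 138 in KO PP. Its ratio to Timp1 was 1.46 ± 0.728, 2.06 ± 0.419, 2.34 ± 0.898 and 2.28 ± 0.735, which overlapped among the groups.

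**Figure D3:**
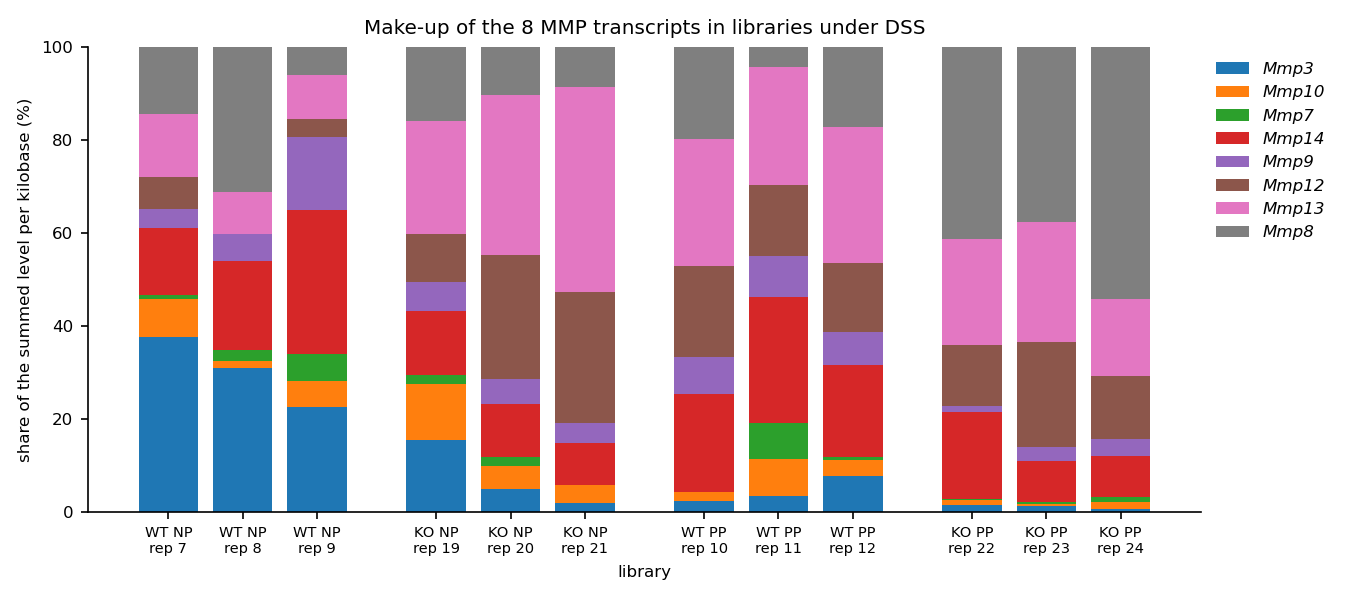
Share of each MMP in the summed level per kilobase of the 8 MMPs (stacked bars, percent), for each library of WT NP, KO NP, WT PP and KO PP. Mmp3 (bottom) takes 22.6 to 37.5% in WT NP and 1.83 to 15.4% in KO NP, and Mmp8 (top) takes 37.6 to 54.3% in KO PP.

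Against the summed markers of the cell types known to make them, the members took different positions. The lowest macrophage marker sum among the DSS libraries, 146 CPM in WT NP replicate 8, came with the lowest Mmp13, 3.03 CPM, and the highest sum, 5558 CPM in KO PP replicate 23, with the highest Mmp13, 273 CPM. Libraries between these ends did not keep the order. KO NP replicate 19 had 525 CPM of markers and 27.2 CPM of Mmp13, against 634 CPM and 15.8 CPM in WT PP replicate 11, and WT PP replicate 10 had 5068 CPM of markers and 92.2 CPM of Mmp13, against 3368 CPM and 124 CPM in KO PP replicate 22. Mmp12 kept no strict order either, with 51.0 CPM at 4843 CPM of markers in WT PP replicate 12 and 61.4 CPM at 2907 CPM in KO PP replicate 24. Mmp3 was 12.97 CPM at the highest fibroblast marker sum, 822 CPM in WT PP replicate 12, and 13.8 CPM, its highest level, at 158 CPM of markers in WT NP replicate 7. All fibroblast markers had counts in every group.

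**Figure D4:**
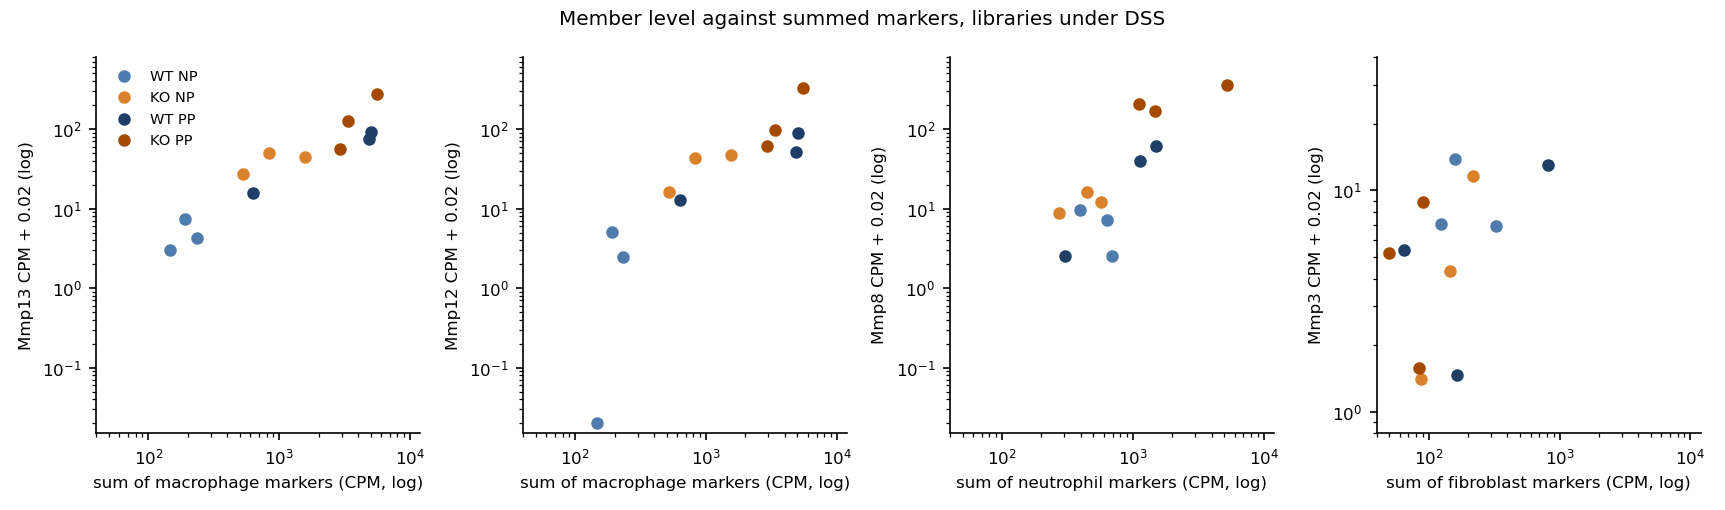
Level of Mmp13, Mmp12, Mmp8 and Mmp3 (CPM + 0.02, log axis) against the summed CPM (log axis) of macrophage, macrophage, neutrophil and fibroblast markers, 1 point per DSS library coloured by group. Mmp13 runs from 3.03 CPM at the lowest macrophage sum to 273 CPM at the highest with some libraries out of order, and the 3 KO PP libraries lie above the WT PP libraries for Mmp8.

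By pattern over the 17 libraries, given as Spearman's rho of log2 CPM and as a description only, since all libraries share the step from NN to DSS, the members fell near different genes. Mmp13 was most like Itgb2, the beta chain of leukocyte integrins (0.985), Cybb, the phagocyte NADPH oxidase subunit (0.983), and Osm, the cytokine oncostatin M (0.983). Adam8 was most like the scavenger receptor Msr1 (0.988), Myo1g (0.988) and Rbms1 (0.985), and Mmp12 like Adssl1 (0.972), Dpep2 (0.972) and Ifi208 (0.969). Mmp8 was most like the chitinase-like gene Chil3 (0.980), Saa3 (0.980) and Slpi (0.974), and Timp1 like Saa3 (0.973), Slpi (0.973) and Ifitm6 (0.969). Mmp9 was most like Slc16a3 (0.973), Clec4n (0.971) and Fpr2 (0.971), and Mmp14 like Atp10d (0.973), Elmo1 (0.956) and Gpr35 (0.949). The nearest genes of Mmp3 were Bdkrb1, the bradykinin B1 receptor (0.896), Srpx (0.868) and Tnfsf10 (0.863), those of Mmp10 were Med14 (0.896), Clec10a (0.879) and Tgfbr2 (0.874), and those of Mmp7 were Usp31 (0.897), Stfa2 (0.895) and Zfp105 (0.889). Among the members, Mmp13 and Adam8 were the closest pair (0.968) and Mmp3 and Mmp14 the farthest (0.420).

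Other genes of the pathway were read from lists that had also been chosen with earlier results known. Of 15 other MMPs, 7 were tested for the MCJ effect in NP and 1 was called (0.983% of all genes): Mmp19, a secreted MMP of basement membrane substrates, was at 2.51, 1.19 and 3.17 CPM in WT NP and 12.5, 18.5 and 6.84 CPM in KO NP (log2 2.46, SE 0.47, adjusted p = 0.0311). Mmp19 also rose with the antibiotic in WT (4.10, SE 0.68) and in KO (3.36, SE 0.65). Mmp25, the MMP anchored to leukocyte membranes, rose with the antibiotic in WT (5.54, SE 1.36, adjusted p = 0.0306). Of 6 other inhibitors (Timp2, Timp3, Timp4, Reck, A2m and Tfpi2), 4 to 6 were tested in each of the 11 comparisons. By edgeR 0 were called in any, with 0 to 3 at an unadjusted p under 0.05 and 0 to 2 called by DESeq2 in each. Of 16 other ADAM and ADAMTS proteases, 11 were tested for the MCJ effect in NP and in PP and 15 for the antibiotic and for DSS. For the MCJ effect in NP and PP and for the antibiotic, 0 were called (1 to 3 at an unadjusted p under 0.05 in each, 0 by DESeq2). Under DSS in WT, Adamts4 was the 1 called of 15 tested, against 2.25% of all genes.

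Of 8 plasminogen system genes, 1 was called for the MCJ effect in NP (0.983% of all genes): Serpinb2, the inhibitor of urokinase, at 1.29, 1.19 and 1.37 CPM in WT NP and 9.80, 25.0 and 13.3 CPM in KO NP (log2 3.64, SE 0.42, adjusted p = 0.0027). With the antibiotic (3.49% of all genes in WT and 1.34% in KO) 4 of 8 were called higher in WT, among them Serpinb2 (5.76, SE 0.78), urokinase Plau (3.82, SE 0.68) and its receptor Plaur (2.26, SE 0.44), and 2 of 8 in KO, Plaur (1.90, SE 0.43) and Serpinb2 (2.88, SE 0.67). Of 8 serine proteases able to open pro-MMPs, 5 were tested for the MCJ effect in NP and 6 for the antibiotic. Of those tested, 0 were called by edgeR in NP or for the antibiotic in either genotype. DESeq2 called 0 for the MCJ effect, 4 for the antibiotic in WT and 1 in KO, where 0, 5 and 1 had an unadjusted p under 0.05 by edgeR.

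Of 10 partners in the extracellular space, 2 were called for the MCJ effect in NP (0.983% of all genes): the hyaluronan receptor Cd44 (2.28, SE 0.28, adjusted p = 0.0034), which docks MMP9 at the cell surface, and osteopontin, Spp1 (3.00, SE 0.38, adjusted p = 0.0040). With the antibiotic, 3 of the 10 were called higher in KO (1.34% of all genes). Lcn2, a lipocalin, was among them (4.59, SE 0.91, adjusted p = 0.0237). In WT 3 of the 10 were called higher (3.49% of all genes) and 1 lower, as were 157 of 16958 genes. Of 12 matrix substrates, Vcan was the 1 gene called for the MCJ effect in NP (2.53, SE 0.37, adjusted p = 0.0103) and the 1 called with the antibiotic in WT (4.43, SE 0.76) and in KO (3.07, SE 0.71); it codes for versican, which monocytes also make. Of 10 cytokines listed as regulators of MMPs, not all of them inducers, 4 were called higher for the MCJ effect in NP (0.983% of all genes). Among them were the anti-inflammatory Il10 (3.14, SE 0.46) and the interleukin 1 genes Il1b (2.07, SE 0.27) and Il1a (3.31, SE 0.36). With the antibiotic the count was 6 of 10 in WT (3.49% of all genes) and 4 of 10 in KO (1.34%), all higher. Of 11 AP-1 and ETS factors, 0 were called by edgeR for MCJ in NP or PP or for the antibiotic (0 to 2 at an unadjusted p under 0.05 in each, and 1 by DESeq2 for the antibiotic in KO), with list medians of 0.06, 0.01, 0.05 and -0.07. The list medians for the cytokines were 1.34 in that MCJ comparison and 3.01 and 2.54 for the antibiotic in WT and KO, against all-gene medians of 0.03, 0.06 and 0.01.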

How the data were processed

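The authors deposited raw counts per gene in 3 tables, 1 per condition, each holding WT and KO libraries, with 27179 NCBI gene numbers as rows. Per the submitters' processing notes, mm10, CASAVA 1.8.2, FastQC, Trim Galore, STAR 2.5.4 and DESeq2 were used; the counting program, its annotation and its use of strand are not given in the sources used here. Symbols came from RefSeq (25275) and GENCODE M21 (18), and 1886 gene numbers without a symbol, 1.39 to 7.32% of counts, stayed in the library sizes and tests. The labels give 1 number per library and do not say whether each is 1 mouse, so p-values measure the spread between these libraries, which may be technical.

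Counts were tested with edgeR 4.0.16 in R 4.3.3 (filterByExpr, TMM, quasi-likelihood F test, Benjamini-Hochberg over all genes tested, calls at adjusted p under 0.05); the script was checked on simulated counts. MCJ effects were fitted in their own table, and other comparisons on all 17 libraries. The SE is the fold change divided by the root of F. A fold against 0 counts is a lower bound against 3 counts over the group, and 1 to 3 counts carry a 95% counting interval. Such limits cover counting error only. Lengths are those of the longest principal transcript in GENCODE M21, chosen in place of merged exons after the data were seen. Alternatives were DESeq2 1.42.0, no filter on low counts, mitochondrial genes left out, another set of libraries in the fit, each library left out in turn, plain CPM and CPM of nuclear counts. All members are named, and of each other list at most the 3 called genes with the smallest p, or 2 where none was called. For each member the 3 genes with the highest Spearman correlation over the 17 libraries (log2 CPM, prior count 2) are named. Tables and figures were made with Python 3.11.15, pandas 2.3.3 and scipy 1.17.1. The members and lists were chosen with earlier results of these data known. Protein sequences were not used here.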

Additional observations from a re-analysis of the deposited data

Results flagged for a closer look

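Mmp8 stood on opposite sides of the genotype comparison in 2 conditions. In PP every KO library was above every WT library, with a log2 difference of 2.84, whereas in NN the WT libraries held 1, 3 and 2 counts and the KO libraries 0 and 0. The NN values are at or under 3 counts per library, and the difference between the 2 effects was not tested.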

How the results depend on the processing

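Directions held for all members called, under every alternative run, while the number called moved. For the MCJ effect in NP, 1 member was called, against 3 with no filter on low counts, 2 by DESeq2 and 0 in the fit of all 17 libraries, and 1 to 2 with 1 library left out. For the MCJ effect in PP, DESeq2 called 1. For DSS in WT, 1 was called with only the groups compared. For DSS in KO, 2 to 7 were called with 1 library left out. For the antibiotic, 1 to 6 were called in WT with 1 library left out, and in KO 0 to 3, with 4 by DESeq2 and 4 with only the groups compared. Leaving out mitochondrial genes changed no member's call. Values of uncalled members turned sign when 1 library was left out, with these ranges: MCJ effect in NN, Mmp14 -0.03 to 0.81; in NP, Mmp7 -0.17 to 1.36; in PP, Mmp3 -0.99 to 0.65, Mmp9 -0.80 to 0.50 and Adam8 -0.04 to 1.24; DSS in WT, Mmp14 -0.07 to 0.87; antibiotic, Mmp7 in WT -0.42 to 1.88 and Mmp3 in KO -0.77 to 0.82. The same held for the change of the MCJ effect from NN to NP, in Mmp14 (-0.36 to 0.58) and Timp1 (-0.18 to 3.63), and from NP to PP, in Mmp3 (-0.28 to 1.40), Mmp7 (-0.55 to 1.75), Mmp14 (-0.22 to 0.64) and Timp1 (-0.16 to 1.33). The cause was not tested.

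Over all genes, DESeq2 called 366 in place of 145 for the MCJ effect in NP, 1206 in place of 414 and 822 in place of 352 for DSS in WT and KO, 1456 in place of 748 and 1004 in place of 294 for the antibiotic, and 2853 in place of 1746 for both treatments in KO. No filter gave 353 for the MCJ effect in NP and 558 for the antibiotic in KO. The fit of all libraries gave 1 for the MCJ effect in NP and 8 in PP, and only the groups compared gave 42 and 1029 for DSS in WT and KO, 802 for the antibiotic in KO and 1612 in place of 3409 for both treatments in WT. With 1 library left out the counts ran from 20 to 203 for the MCJ effect in NP, 267 to 769 and 45 to 340 for DSS, 215 to 1313 and 12 to 634 for the antibiotic, and 2118 to 3640 and 552 to 1971 for both treatments in WT and KO. For the MCJ effect in NN and in PP and its changes from NN to NP and from NP to PP, with 0 genes called, no filter gave 9, 1, 16 and 36, and leaving out 1 library gave up to 1, 6, 41 and 29. Plain CPM kept 59 of 60 group means within 1 SD, and CPM of nuclear counts 36 of 60. Merged exon lengths, an alternative chosen after seeing the data, gave Mmp3 28.7 to 42.6% of the MMP sum in WT NP and 2.28 to 17.9% in KO NP, and Mmp8 45.1 to 61.8% in KO PP. In NN, 8 members did not pass the filter on low counts and were not tested between genotypes; 0 counts allow up to 0.0422 CPM over WT NN and 0.0390 CPM over KO NN.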
